A study of Homo sapiens with 8 samples.

Results

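The erythropoietin receptor (EPOR), its kinase JAK2, the transcription factors STAT5A and STAT5B and 6 of their targets (CISH, SOCS1, SOCS2, SOCS3, PIM1 and OSM) were examined for open chromatin before and after stem cell factor. A peak was assigned to these 10 genes when its summit lay inside a gene body or within 50 kb of one of the gene's annotated start sites. Under this rule 232 of 126449 peaks were assigned, and they merged into 65 of 43654 accessible regions. All 10 genes had at least 1 region. The measured values had no part in the rule that assigned peaks. The genes are those of a known pathway, but they were chosen with earlier results of these data known.

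HUDEP-2, the cells used, is an immortalised line of human erythroid progenitors that carries an inducible viral oncogene cassette and grows in erythropoietin (EPO), stem cell factor (SCF), dexamethasone and doxycycline (here 4 U/ml, 50 ng/ml, 0.4 μg/ml and 1 μg/ml). All libraries described came from cells with a control guide RNA (sgControl). Both groups went without growth factors, EPO included, for 5 h in a basal medium with 1% albumin. One group then received SCF at 50 ng/ml for 1 h and the other received phosphate-buffered saline (PBS), with 2 ATAC-seq libraries per group and 50000 cells per library. EPO was therefore absent from both groups, and the comparison asks what Kit signaling alone did at the genes of the EPO pathway. The samples with a guide against EGR1 were not analysed here. The study's methods describe the libraries as biological duplicates, without saying what was kept separate between them, so tests measure the spread between these libraries only.

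EPO holds 2 copies of its receptor together on the surface of erythroid progenitors, and the bound JAK2 kinases then phosphorylate STAT5. STAT5 enters the nucleus as a dimer and binds a palindromic word, TTCNNNGAA. CISH and the SOCS proteins are induced by STAT5 and shut the receptor off, PIM1 is a survival kinase, and OSM (oncostatin M) is a secreted cytokine. Kit, the receptor of SCF, is a tyrosine kinase in its own right and cooperates with the EPO receptor during erythropoiesis.

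Of the 5 words searched, the STAT word marked the CISH promoter most clearly, and its sequence is shown first for that reason. The 250 bases before each gene's canonical start were read from GRCh37 on the gene's own strand. Among 19881 protein-coding genes 5.67% held the STAT word at least once in the same stretch. CISH held 4 copies, which 3 of the 19881 genes did. They began at positions -241, -230, -129 and -112, where -1 is the base before the start. The first pair lies in the first exon of some transcripts of MAPKAPK3, which is read from the opposite strand. Capitals mark the STAT word in the 2 CISH stretches (chr3:50649422-50649450 and chr3:50649206-50649338, minus strand).
CISH, outer pair: cgttTTCCTGGAAagTTCTTGGAAatctg
CISH, inner pair: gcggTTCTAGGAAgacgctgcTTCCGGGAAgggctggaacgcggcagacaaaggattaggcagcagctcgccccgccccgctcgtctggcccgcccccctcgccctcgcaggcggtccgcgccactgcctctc

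Of EPOR, JAK2, STAT5A, STAT5B, SOCS1 and PIM1, none had a STAT word in the 250 bases before its start. Of these 6, EPOR held the GATA word (AGATAA or TGATAA, either strand), which GATA1, the chief transcription factor of erythroid cells, recognises. It occurred once, at -78, against 10.3% of coding genes with at least 1 copy. The GATA word, here read on the opposite strand as TTATCT, is in capitals in 30 bases before EPOR (chr19:11495051-11495080, minus strand).
EPOR: cccgccaggcacTTATCTctacccaggctg

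The lists held 30240 and 33616 peaks in PBS replicates 1 and 2 and 29269 and 33324 in SCF replicates 1 and 2, of which 55, 63, 54 and 60 belonged to the 10 genes. Read totals are unknown. The fragment pileup at each summit was recovered from the deposited values, and the background pileup, a proxy for depth, was 1.05, 1.5001, 0.944 and 0.885. PBS replicate 2 was thus the deepest library. Peaks stood at the starts of 9 of 10 erythroid markers in all 4 libraries (ALAS2 only in PBS replicate 2), and at the starts of 0 of 4 T-cell markers in any library. Among the myeloid, epithelial, liver and neural markers, starts with a peak in all 4 libraries were those of CD14 and CSF1R (of 5 myeloid genes), EPCAM (of 4 epithelial and liver genes) and GFAP and SYN1 (of 3 neural genes). ELANE had one in 3 libraries, and the part of other cells in the results was not tested.

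A pair of measures describes a region. The rank is the percentile of a peak's fold enrichment over local background within its own list, where 100 is the highest. The pileup is the whole-number count over the summit recovered from the deposited values, which is also given divided by the library's background pileup. Its units are called fragments here, but the caller was not given, so what was counted is not known. A region is named by the nearest of the 10 genes and by the distance of its summit from the canonical start on the gene's strand, so that SOCS1 +23.0 kb lies downstream of SOCS1. A region that a list does not hold is one that failed the threshold, and its level there is unknown rather than 0.

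Of the 65 regions, 47 (72.3%) were called in all 4 libraries, against 51.3% of all regions. The remaining 18 were 6 called in 3 libraries, 6 in 2 and 6 in 1. Of those called once, 3 were in PBS replicate 2, the deepest library, and 3 in the SCF libraries. The 65 lay at member promoters (10), at alternative starts of a member (3), within 1 kb of a start of another coding gene (19) and elsewhere (33). STAT5A and STAT5B are neighbours on chromosome 17, and 8 regions belong to both.

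Few regions of the 10 genes met a criterion of change, as the map of regions by distance shows. SCF-only regions (a peak in each SCF library, none in the PBS libraries) numbered 2 of 65, or 3.08%, against 1.65% of all regions. PBS-only regions numbered 1 (1.54%), against 2.37%. Rank gain (both SCF ranks at least 10 points above both PBS ranks) occurred at 1 of 47 regions (2.13%) and rank loss at 1 (2.13%), against 2.55% and 3.04% of the 22398 regions called in all 4 libraries. Each of these shares rests on 1 or 2 regions, and 1 region more or fewer would move each across its background. With any gap, SCF ranks lay above PBS ranks at 5 regions (10.6%, background 16.0%) and below at 9 (19.1%, background 19.3%).

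**Figure D1:**
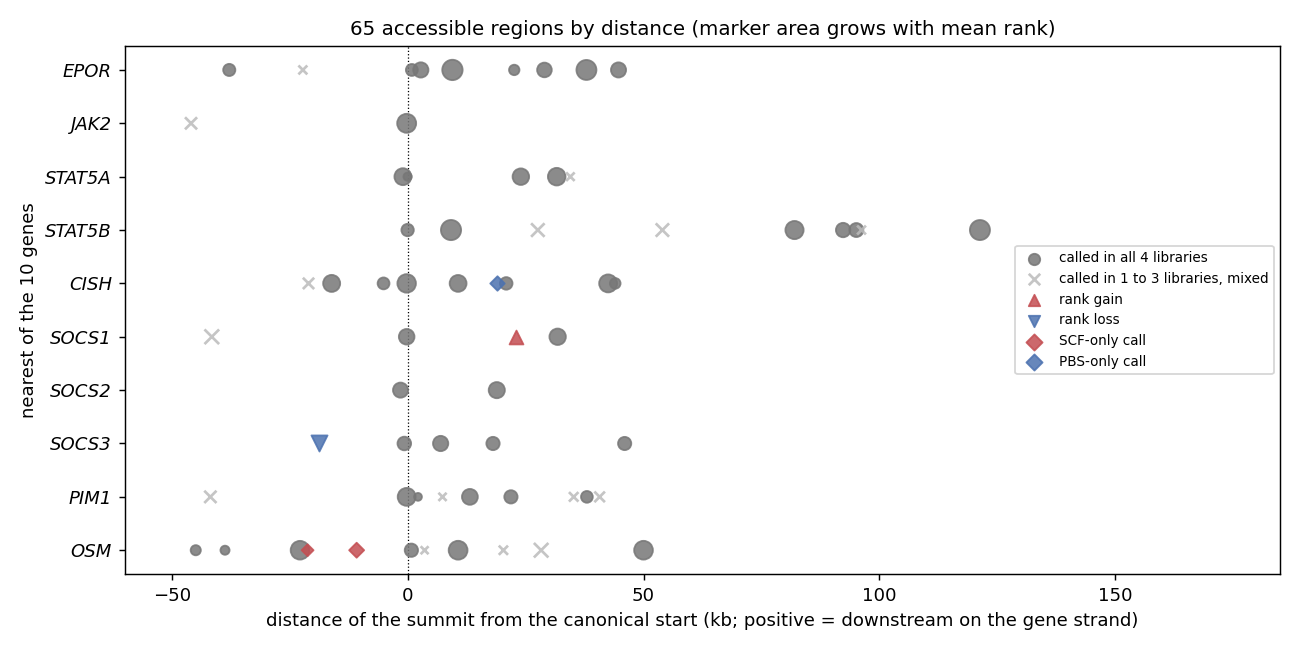
The 65 regions are placed by the distance of their summit from the canonical start of the nearest of the 10 genes (kb, positive downstream), with a row per gene, symbols for call class and marker area growing with mean rank. Changed regions are few, 1 rank gain near SOCS1, 1 rank loss near SOCS3, 1 PBS-only call near CISH and 2 SCF-only calls near OSM, and JAK2 has only 2 regions.

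The median rank difference (mean of SCF minus mean of PBS) was -1.57 points over the 47 regions and -0.527 over all 22398. It ranged from -18.8 to 35.2, and 16 of the 47 were positive. The median size of the difference was 4.04 points, whereas the median gap between the 2 PBS replicates at the same regions was 7.48 points and that between the SCF replicates 6.70. Over all 22398 regions the corresponding values were 5.19, 6.53 and 7.45 points. A difference of 2-library means varies less than a gap between single libraries, so these values are a description and no test. limma on the ranks of all 22398 regions called 0 regions at an adjusted p under 0.05, with 1315 (5.87%) at an unadjusted p under 0.05, of which 1 belonged to the 10 genes. On simulated data this rank fit made no calls even of large changes, so its count of 0 does not show that accessibility was unchanged. A fit on log2 fold enrichment, which did make calls on simulated data, also called 0 of the 22398 regions (1517 at an unadjusted p under 0.05, 2 of them near the 10 genes). The simulation gave every region the same spread, so this count of 0 does not show unchanged accessibility either. With 2 libraries per group, an exact permutation test on a single region cannot go below p = 0.333.

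**Figure D2:**
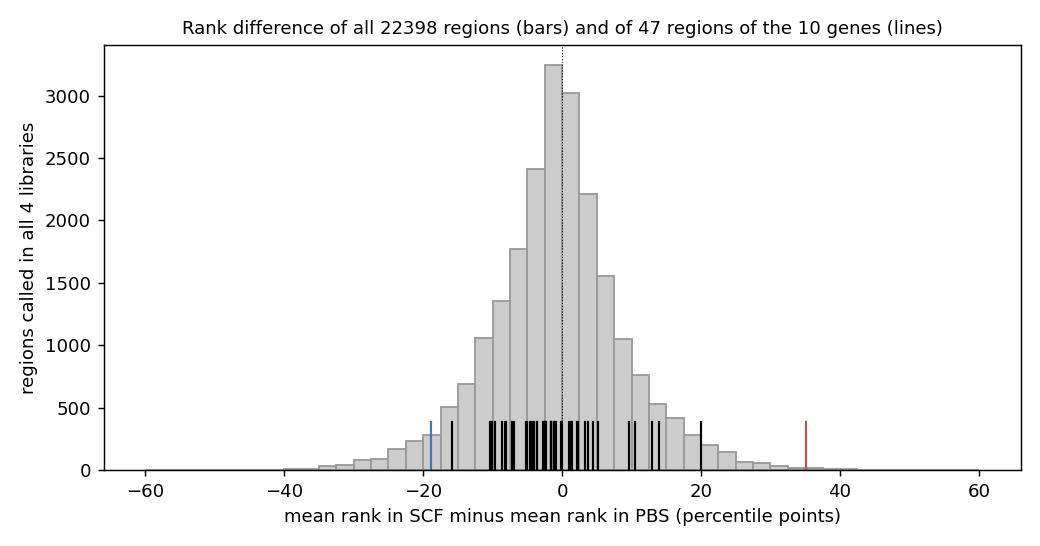
Bars count all 22398 regions called in all 4 libraries by rank difference (SCF minus PBS, percentile points), and each vertical line is 1 of the 47 regions of the 10 genes. The lines gather around 0 (median -1.57), with the rank loss at -18.8 in blue and the rank gain at 35.2 in red.

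EPOR, the receptor itself, had 9 regions, and 8 had a peak in every library. Its promoter region (chr19:11493588-11495067, summit in an intron, 0.9 kb past the canonical start) had ranks of 31.4 and 12.3 in PBS and 21.4 and 28.8 in SCF. The groups overlapped, at 21.9 ± 13.5 and 25.1 ± 5.21 (SD, n = 2). Its pileups were 86, 82, 68 and 74 fragments, and when divided by the library background they were 82.2, 54.7, 72.1 and 83.6, so that PBS replicate 2 was the lowest. A second EPOR start (EPOR +2.8 kb, chr19:11491716-11492808) had ranks of 49.0, 51.8, 45.1 and 48.3. Both SCF ranks were below both PBS ranks there, by less than 1 point between the nearest pair. The pileup over background at this second start was 106 ± 9.08 in PBS and 111 ± 8.10 in SCF.

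The strongest region in the EPOR neighbourhood was not at EPOR. EPOR +9.5 kb (chr19:11485067-11486208), at the start of SWSAP1, a gene for a protein of homologous recombination, ranked 99.3, 99.5, 99.3 and 99.2. Its pileups were 333, 472, 337 and 297 fragments. The rank varied by less than 1 point over the 4 libraries, and the limma interval of the difference ran from -2.96 to 2.78 points. EPOR +37.9 kb, at a start of CCDC159, ranked 94.4, 97.1, 97.9 and 91.2. EPOR +22.6 kb, near a start of PLPPR2, ranked 18.5 and 18.3 in PBS and 13.9 and 5.72 in SCF, with both SCF libraries below. In pileup over background its groups overlapped, at 10.9 ± 2.19 in PBS and 13.0 ± 4.05 in SCF. No EPOR region met the criteria of rank gain or loss, and their differences ranged from -10.1 to 3.23.

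JAK2 had the sparsest landscape. Its gene spans 146 kb, and a single region, at its start, was called in all libraries. This promoter region (chr9:4984409-4985945) ranked 85.3, 81.0, 85.8 and 84.97. The difference was 2.24 points (limma 95% interval -6.23 to 10.7, adjusted p = 0.955), and its pileup over background was 109 ± 22.6 in PBS and 124 ± 2.15 in SCF (SD, n = 2). The only other region, JAK2 -45.9 kb, was called in SCF replicate 2 alone, with 8 fragments. No region was called in the introns of JAK2 away from its start.

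By rank of fold enrichment, STAT5A and STAT5B, the paired transcription factors, start from weak or middling peaks. The region over the STAT5B start (chr17:40427456-40429574) ranked 31.9, 10.95, 42.8 and 21.0, and the groups overlapped. STAT5A had a region over its canonical start (chr17:40440195-40441683) that ranked 6.26, 1.59, 2.66 and 0.33, and one 1.0 kb upstream at another STAT5A start (chr17:40439150-40439916) that ranked 59.6, 68.6, 57.3 and 68.5. In both the groups overlapped. Replicate 2 was the higher library of each treatment at the upstream start. Ranked by pileup, the mean ranks were 49.4 at the STAT5B start, 52.2 at the canonical STAT5A start and 82.2 at the upstream one.

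An intron of STAT5B held the region of highest mean rank near the STAT5 pair. STAT5B +9.2 kb (chr17:40418880-40419627) ranked 95.5 and 97.7 in PBS and 96.3 and 99.9 in SCF. Its pileups were 55, 91, 57 and 102 fragments, or 52.6, 60.7, 60.4 and 115 over background. SCF replicate 2 stood apart from the other 3 libraries, and SCF replicate 1 lay between the PBS values, so that the groups overlapped. The difference in rank was 1.46 points (limma 95% interval -2.94 to 5.86). The 201 bases around its summit (chr17:40419116-40419316, plus strand) are shown because they hold a tandem pair of GATA words and 1 AP-1 word (TGANTCA), all in capitals. The GATA pair begins 4 bases past the summit, so the peak is centred on it.
STAT5B +9.2 kb: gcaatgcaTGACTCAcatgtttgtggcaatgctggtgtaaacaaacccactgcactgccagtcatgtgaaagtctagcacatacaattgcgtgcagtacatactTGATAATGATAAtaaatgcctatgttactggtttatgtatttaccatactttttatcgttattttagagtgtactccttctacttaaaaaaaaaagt

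Farther out, STAT5B +121.3 kb at the start of RAB5C (an endosomal GTPase) ranked 97.2, 93.1, 96.7 and 97.7. STAT5B +82.0 kb at the start of GHDC ranked 86.3, 75.9, 70.0 and 71.6, with both SCF libraries below both PBS libraries. STAT5A +31.6 kb, at a start of the neighbouring STAT3, ranked 74.99, 68.3, 65.7 and 71.9. Its summit lies on an AP-1 word (first base 1 before the summit). None of the regions of the STAT5 pair met a criterion of change.

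CISH, the best-known STAT5 target, had an open promoter in every library. The region (chr3:50648960-50650218) covers the start of CISH and that of MAPKAPK3, a kinase gene on the opposite strand. Its ranks were 78.6 and 79.5 in PBS and 77.2 and 83.5 in SCF. SCF replicates were the lowest and the highest of the 4, and the difference was 1.28 points (limma 95% interval -9.88 to 12.4, adjusted p = 0.985). The pileups of 174, 239, 168 and 151 fragments gave 163 ± 5.00 over background in PBS and 174 ± 5.26 in SCF, a log2 difference of 0.10, against a median of 0.16 over all regions. On this measure both SCF values (178 and 171) were above both PBS values (166 and 159). The 201 bases around its summit held 4 STAT words, at -92, -75, 26 and 37 from the summit. They are the 4 words printed above, and of 43569 regions searched 1 held 4 or more.

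Of the other CISH regions, CISH -5.1 kb (a second start of MAPKAPK3, chr3:50654164-50655060) ranked 17.8 and 18.6 in PBS and 26.5 and 29.1 in SCF. CISH +44.0 kb (the start of C3orf18, chr3:50604964-50605483) ranked 11.7 and 6.45 in PBS and 22.3 and 21.6 in SCF. In both the SCF libraries were above the PBS libraries, with gaps of under 10 points, and neither passed limma (adjusted p = 0.863 and 0.836). The highest-ranked region after the promoter, CISH +42.5 kb at a start of HEMK1 (a methyltransferase gene), ranked 74.1 and 80.1 in PBS and 71.6 and 68.7 in SCF. CISH +10.7 kb ranked 63.5 and 71.0 in PBS and 58.6 and 59.6 in SCF. At these 2 the SCF libraries were below the PBS libraries. CISH +18.9 kb (chr3:50630113-50630481, in HEMK1) was the PBS-only region. It held 11 and 20 fragments in the PBS libraries, with ranks of 1.48 and 24.5, and no peak was listed in either SCF library. CISH +20.9 kb, 2 kb from it and called in all 4 libraries, ranked 48.5, 9.82, 15.5 and 37.8. A STAT word begins 61 bases past its summit, in capitals in chr3:50628343-50628371 (plus strand).
CISH +20.9 kb: gtaccttcatTTCTGGGAActaactgtgc

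The 3 SOCS genes encode inhibitors that bind JAK kinases or receptors, and the treatments overlapped at the promoters of SOCS1 and SOCS3. The SOCS1 promoter (chr16:11348797-11350607) ranked 44.01, 54.3, 47.1 and 61.5, with pileups of 100, 153, 96 and 101 fragments. SOCS1 +31.8 kb, in an exon of a non-coding gene, ranked 52.0, 62.1, 51.6 and 70.0, and replicate 2 was the higher of each treatment. The SOCS3 promoter (chr17:76355845-76357244) ranked 50.4, 24.5, 25.5 and 41.3. The SOCS2 region at an upstream start (SOCS2 -1.5 kb, chr12:93963351-93965903) ranked 52.3 and 50.6 in PBS and 39.8 and 46.6 in SCF, so that both SCF libraries were below both PBS libraries. Its pileup over background was 75.3 ± 5.69 in PBS and 64.1 ± 5.22 in SCF, a log2 difference of -0.23 where the median region stood at 0.16. The canonical SOCS2 start had no region of its own, and the only other SOCS2 region, SOCS2 +18.9 kb, ranked 65.5, 49.3, 57.6 and 54.1.

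SOCS1 +23.0 kb was the rank gain (chr16:11326753-11327467, intergenic, 16.4 kb from the nearest coding start, that of RMI2). It ranked 34.9 and 4.17 in PBS and 55.5 and 53.9 in SCF. Both SCF libraries were above both PBS libraries, and the PBS replicates differed from each other by more than 30 points. The difference was 35.2 points (SE 12.2, limma 95% interval 5.62 to 64.8), the largest among the 47 regions, with an adjusted p of 0.824. The pileups were small, at 15 and 10 fragments in PBS and 19 and 18 in SCF, and their exact Poisson 95% intervals overlapped in every pair of libraries, from 8.40 to 24.7 in PBS replicate 1 and from 11.4 to 29.7 in SCF replicate 1. Divided by background they were 10.5 ± 5.43 in PBS and 20.2 ± 0.142 in SCF. Without PBS replicate 2 the difference was 19.8 points, and without PBS replicate 1 it was 50.6. A STAT word begins 69 bases past the summit and is in capitals in the 201 bases around it (chr16:11326952-11327152, plus strand). It is the one changed region of the 10 genes with a STAT word in this window.
SOCS1 +23.0 kb: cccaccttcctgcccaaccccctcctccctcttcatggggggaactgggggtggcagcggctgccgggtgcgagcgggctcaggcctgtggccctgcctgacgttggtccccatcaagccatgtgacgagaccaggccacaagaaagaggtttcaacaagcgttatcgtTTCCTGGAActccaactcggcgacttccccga

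SOCS3 -18.7 kb was the rank loss (chr17:76374455-76375237). It covers the start of PGS1, a gene of mitochondrial phospholipid synthesis. Its ranks were 64.4 and 66.0 in PBS and 40.7 and 52.1 in SCF, a difference of -18.8 points (limma 95% interval -41.0 to 3.34, adjusted p = 0.836). The pileups of 30, 38, 24 and 22 fragments gave 27.0 ± 2.37 over background in PBS and 25.1 ± 0.410 in SCF. In pileup over background the groups overlapped. SOCS3 +46.0 kb, in intergenic DNA, ranked 43.9, 36.97, 14.7 and 34.5, and its SCF libraries too were below its PBS libraries.

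**Figure D3:**
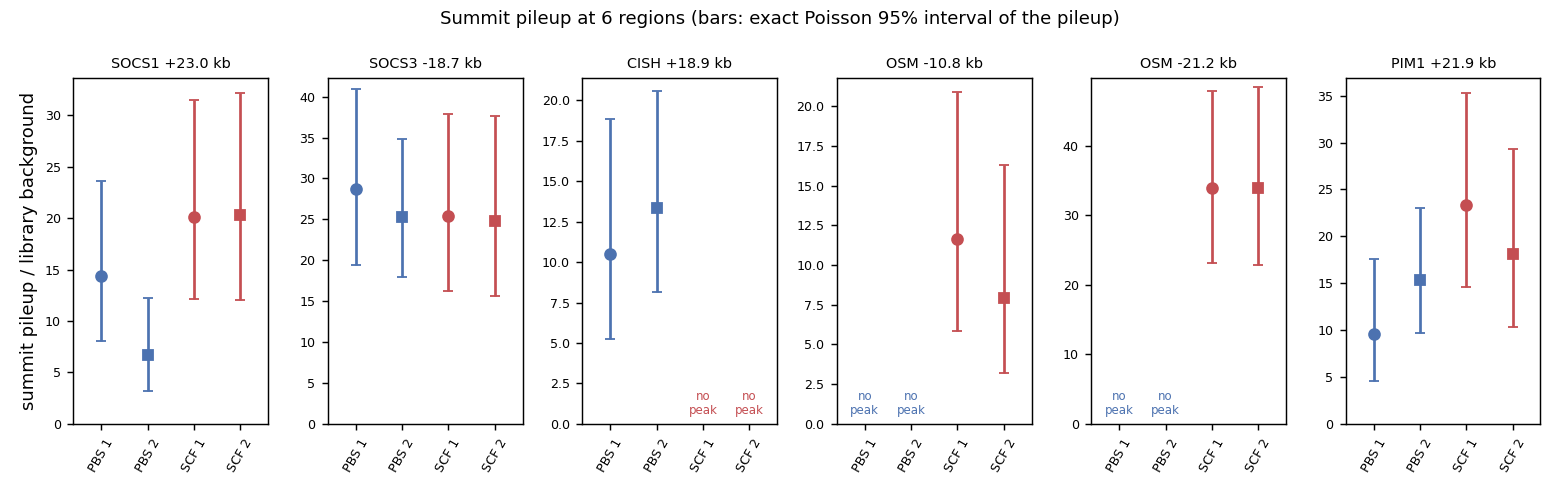
Summit pileup divided by library background in PBS (blue) and SCF (red) replicates at 6 regions, with exact Poisson 95% intervals of the pileup, which cover counting error only, and with "no peak" where a list held none. The intervals overlap between treatments at SOCS1 +23.0 kb, SOCS3 -18.7 kb and PIM1 +21.9 kb, and the CISH and OSM regions lack values in 1 treatment.

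PIM1, the survival kinase, had the highest promoter pileup of the 10 genes. The promoter region (chr6:37137267-37138441) held 178 and 285 fragments in PBS and 225 and 173 in SCF, which became 170 and 190 over background in PBS and 238 and 195 in SCF. Its ranks were 62.4 and 70.5 in PBS and 84.7 and 76.2 in SCF. On both measures the SCF libraries were above the PBS libraries. The nearest PBS and SCF libraries were under 10 points apart, so the region did not meet the rank gain criterion. The rank difference was 13.98 points (SE 6.56, limma 95% interval -1.96 to 29.9, adjusted p = 0.831), and without each library in turn it lay between 9.72 and 18.2. Ranked by −log10 p the difference was only 2.09 points, and ranked by pileup 0.614. The log2 difference in pileup over background was 0.27, where the median region stood at 0.16.

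An alternative PIM1 start 2.2 kb downstream (PIM1 +2.2 kb, chr6:37139895-37140386) went the other way. It held 65 and 97 fragments in PBS and 43 and 48 in SCF, or 63.4 ± 1.77 and 49.9 ± 6.12 over background, a log2 difference of -0.35. Both SCF libraries were below both PBS libraries. The ranks were nevertheless all at the bottom of the lists, at 0.913, 1.96, 0.0888 and 0.444, because fold enrichment divides by a local background that was 21.8, 31.5, 18.2 and 17.2 fragments there. On the log2 pileup scale limma gave an adjusted p of 0.641, a fit that was added after the data were seen.

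PIM1 +21.9 kb (chr6:37159457-37160172, intergenic) ranked 5.04 and 40.7 in PBS and 48.0 and 37.8 in SCF. The second PBS library lay between the SCF libraries, and the difference of 20.04 points came with an SD of 25.2 in PBS. PIM1 +13.2 kb (chr6:37150754-37151390) ranked 53.8, 59.2, 60.2 and 42.5, and the groups overlapped. It is shown because its summit lies inside a STAT word, which starts 1 base before it (chr6:37151057-37151257, plus strand, word in capitals).
PIM1 +13.2 kb: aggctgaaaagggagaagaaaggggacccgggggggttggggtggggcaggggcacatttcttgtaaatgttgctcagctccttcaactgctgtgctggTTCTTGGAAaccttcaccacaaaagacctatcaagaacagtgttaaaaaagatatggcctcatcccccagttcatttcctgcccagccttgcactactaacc

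OSM, the secreted cytokine, had 11 regions. All 4 lists held 6 of these, and both SCF-only regions of the 10 genes were among the others. Its promoter region (chr22:30661643-30663447) ranked 37.5, 35.9, 22.8 and 36.2, and the groups overlapped in rank. Its pileups were 36, 46, 33 and 35 fragments, with both SCF values below both PBS values. Divided by background they were 34.4, 30.7, 35.0 and 39.5, with both SCF values above. OSM -10.8 kb (chr22:30673568-30673942, intergenic) was SCF-only, with 11 and 7 fragments and ranks of 25.8 and 4.45. OSM -21.2 kb (chr22:30683930-30684297) was the other SCF-only region, with 32 and 30 fragments but ranks of only 2.05 and 4.99. It lies at a start of CASTOR1, an arginine sensor of the mTORC1 pathway, beside a stronger CASTOR1 peak (OSM -22.8 kb) that ranked 81.7, 83.2, 86.9 and 73.4. All 4 ranks at the SCF-only regions were in the lower part of their lists. Neither held a word of the 5 searched within 100 bases of its summit.

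The best-ranked OSM regions were distal. OSM +50.0 kb (chr22:30612446-30613360), downstream of LIF, a cytokine gene of the same family, ranked 77.3 and 81.9 in PBS and 83.9 and 84.2 in SCF. The SCF libraries were above the PBS libraries, by under 10 points, and the pileup over background was 45.6 ± 0.404 and 58.5 ± 0.326. The log2 difference was 0.36 against the median of 0.16, with an adjusted p from limma on ranks of 0.903. OSM +10.7 kb ranked 78.5, 87.7, 75.7 and 88.9, and there replicate 2 was the higher in each treatment.

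**Figure D4:**
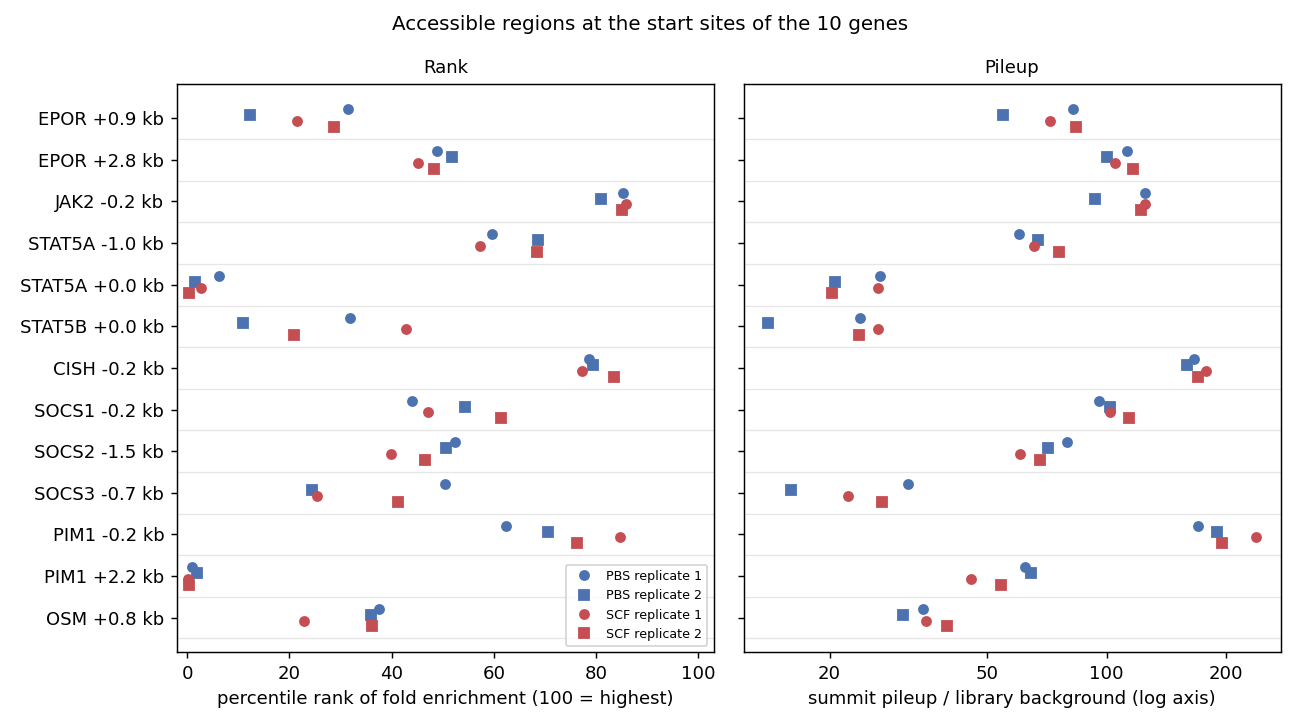
Percentile rank of fold enrichment (left) and summit pileup over library background (right, log axis) in each of the 4 libraries, at the 13 regions over canonical or alternative starts of the 10 genes. PBS (blue) and SCF (red) points interleave in most rows, and EPOR, SOCS1 and PIM1 starts have high pileups beside lower ranks. The PIM1 promoter has both SCF points above both PBS points in both panels, and the CISH and OSM promoters have them so only in the right panel.

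Over the start sites, JAK2, CISH and PIM1 had the highest promoter ranks, with means over the 4 libraries of 84.3, 79.7 and 73.4. The STAT5A upstream start (63.5) and SOCS1 (51.7) followed, then SOCS3 (35.4), OSM (33.1), STAT5B (26.7), EPOR (23.5) and the canonical STAT5A start (2.71). Within each of the 4 libraries JAK2 ranked above CISH and above PIM1. CISH was above PIM1 in 3 of 4 libraries. Between neighbours from SOCS3 to EPOR in this order (SOCS3 and OSM, OSM and STAT5B, STAT5B and EPOR) the order differed from library to library. The 32 regions of the 10 genes within 1 kb of any coding start had a median mean rank of 48.0 where called in all libraries (28 regions), against 74.4 for the 11842 such regions in the whole set. At regions farther away the medians were 48.9 (19 regions) and 52.2.

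Ranking by pileup instead of fold enrichment changed the order of the genes, and by pileup rank 0 of the 47 regions met the gain or loss criterion, against 1.00% and 1.50% of all regions. The mean rank of the EPOR promoter rose from 23.5 by fold enrichment to 84.1 by pileup, that of the second EPOR start from 48.6 to 92.5, that of SOCS1 from 51.7 to 91.6 and that of PIM1 +2.2 kb from 0.851 to 77.4. Local backgrounds at these regions averaged 15.4, 16.4, 14.9 and 22.2 fragments. The median difference between the ranks was 10.8 points at the 47 regions and -2.80 at all regions, and 6 of the 47 (12.8%) had a pileup rank more than 40 points higher, against 4.28% of all. A low rank at these starts is therefore not a low fragment count.

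**Figure D5:**
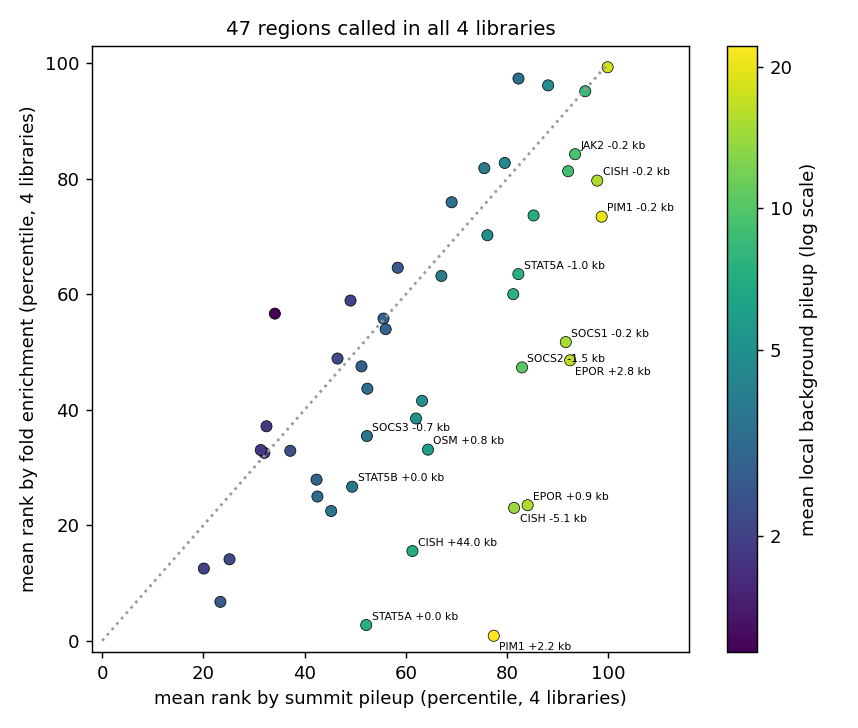
Mean rank by fold enrichment against mean rank by summit pileup over 4 libraries for the 47 regions, coloured by mean local background (fragments, log scale), with equal ranks on the dotted line. Starts of EPOR, SOCS1, SOCS2 and PIM1 lie far below the line, with local backgrounds of 10.5 to 22.2. The canonical STAT5A start also lies far below it, with a local background of 7.39.

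The 5 words were then counted in the 201 bases around every summit. The STAT word occurred in 5 of the 65 regions (7.69%) and in 5.09% of all 43569 searched. These were the CISH promoter, SOCS1 +23.0 kb, CISH +20.9 kb, PIM1 +13.2 kb and STAT5A +34.5 kb, the last called in PBS replicate 2 alone. The GATA word occurred in 7 (10.8%), against 25.4%, and in 6 of the 33 regions away from coding starts, against 34.9% of such regions. The AP-1 word (TGANTCA) occurred in 5 (7.69%, against 8.43%), the ETS word CCGGAAG in 3 (4.62%, against 4.44%) and the EGR word GCGTGGG in 1 (1.54%, against 3.799%). In these windows words shared bases only in the CISH promoter, where the ETS word overlaps a STAT word. A word is a match of letters and not a bound site.

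Counts for other genes of the pathway were of a similar size. A list of 25 further components of cytokine receptor and JAK-STAT signaling had 176 regions near 24 of its genes, of which 4 were SCF-only (2.27%), 2 PBS-only (1.14%), and among 97 called in all libraries 2 gained rank (2.06%) and 2 lost it (2.06%). The median rank difference was -1.23. Of these regions 6 also belonged to the 10 genes. A gain lay in an intron of the kinase JAK1 (30.01 and 32.7 in PBS, 55.7 and 65.5 in SCF). Losses were near the phosphatase PTPN11 (17.8 and 34.6 in PBS, 7.23 and 4.41 in SCF) and near STAT3 (37.3 and 40.3 in PBS, 19.9 and 22.5 in SCF). SCF-only regions lay near JAK1, CBL (a ubiquitin ligase), STAT2 and, 0.8 kb past its start, PTPN6, a phosphatase that acts on the EPO receptor. Their SCF ranks were 5.69 and 4.13 at PTPN6 and from 15.9 to 31.6 at the others. PBS-only regions lay near CBL and the adaptor GAB1.

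A second list, of 18 other genes known to respond to EPO or STAT5, had 127 regions. Of these 5 were SCF-only (3.94%) and 2 PBS-only (1.57%), and among 81 called in all libraries 3 gained rank (3.70%) and 2 lost it (2.47%), with a median rank difference of 0.473. Of these regions 9 also belonged to the 10 genes, both SCF-only regions near LIF among them. ERFE, which encodes the erythroid hormone erythroferrone, gained rank at its own start (5.77 and 4.78 in PBS, 21.6 and 38.6 in SCF, with 16, 22, 25 and 22 fragments). PIM2, a kinase related to PIM1, gained in an intron 1.6 kb past its start (18.8 and 33.7 in PBS, 46.3 and 49.2 in SCF), and CCND3, a cyclin gene, gained in an intron (1.56 and 15.7 in PBS, 40.1 and 47.3 in SCF). The start of GDF15 was PBS-only (27 and 22 fragments, ranks of 12.3 and 1.48), and losses were seen 42.3 kb from GDF15 and near PIM3. The remaining SCF-only regions were near PIM2, ID1 and MYC, and a second PBS-only region was near ID1. No region of either list was tested apart from the fit over all regions, which called none.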

How the data were processed

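Peak lists of 4 sgControl ATAC-seq libraries were used. The authors used the ENCODE ATAC-seq pipeline, and the submitters' processing notes name bcl2fastq, Bowtie2, SAMtools and hg38, but each deposited list names hg19, so coordinates were read as hg19 (GRCh37). Peaks were called per library, and the caller was not given in the sources used here. Peak names carry replicate numbers that differ from those of the labels, which were followed. The deposited score column was not used in any comparison. The deposited signal column is a ratio, the fold enrichment over local background. The 2 columns of −log10 p-values and q-values were deposited by the authors, and the highest q-value was 0.0497. All peaks on 24 chromosomes ended inside GRCh37.

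Whole-number summit pileups were recovered from fold enrichment and −log10 p, under a Poisson model, for 100% of peaks within a relative error of 0.0001. Lists were merged wherever peaks shared 1 bp, and the highest-ranked peak of a library stood for a region. Gene models were those of GENCODE release 44 on GRCh37. Percentile ranks of the 22398 regions called in all 4 libraries were compared in limma 3.58.1 (R 4.3.3) with empirical Bayes moderation and Benjamini-Hochberg adjustment, after tests on simulated data, in which this rank fit gave the right direction of change but made no calls and a fit on quantile-normalised log2 fold enrichment did make calls. The simulation gave every region the same spread. The study compared normalised read counts between lists, which peak lists do not allow. Some genes and sequences, among them stretches upstream of some members, are not reported here. Words were searched on both strands, within 100 bases of the summit in the highest-ranked library or in the 250 bases before canonical starts. Intervals of pileups are exact Poisson intervals (95%).

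The members and lists were chosen with earlier results of these data known. Named regions were those over a member's start, the highest-ranked other region of each member and every region that changed class. Others, such as those with overlapping or separated groups, were chosen after their values were seen. Alternatives were a window of 15 kb, a −log10 q of at least 5, equal numbers of peaks, 50% overlap, other ranks and gaps, other scales and leaving out each library.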

Additional observations from a re-analysis of the deposited data

How the results depend on the processing

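With a window of 15 kb the counts of SCF-only, PBS-only, rank gain and rank loss regions (2, 1, 1 and 1) became 1, 0, 0 and 0. Under a −log10 q minimum of 5, SCF-only, PBS-only and gain became 1, 2 and 0, and with equal numbers of peaks per library 1, 0 and 0. Ranked by recovered pileup, or with a gap of 20 points, gain and loss both became 0, and with a gap of 5 points gain became 4. Without each library in turn, SCF-only ranged from 2 to 4, PBS-only from 1 to 6, gain from 3 to 4 and loss from 3 to 5. The shares of all regions rose too, to 2.98-10.6% SCF-only, 4.43-11.03% PBS-only, 5.93-11.2% gain and 7.19-14.4% loss. The difference at SOCS1 +23.0 kb was 18.8 points with equal numbers of peaks and 19.8 to 50.6 without each library. The rank gain criterion puts both SCF ranks above both PBS ranks, so the sign without a library was fixed in advance. The median rank difference of -1.57 became -2.52 with the stricter q, -0.531 with equal numbers of peaks and -1.04 ranked by −log10 p, and ranged from -1.87 to -0.164 without each library. Without a library each criterion asks for the agreement of fewer libraries, so by definition those counts cannot fall. The cause of the other changes was not tested. A 50% overlap changed none of these 5 values.

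limma called 0 regions at an adjusted p under 0.05 under all 9 alternatives, with 839 to 1789 regions at an unadjusted p under 0.05 without each library in turn. On simulated data the rank fit made no calls, so the counts of 0 from rank fits say nothing about stability. The fits on log2 fold enrichment and on log2 pileup over background were not rank fits. The log2 fold fit did make calls on simulated data, but that simulation gave every region the same spread. PBS and SCF replicate numbers did not deviate together (r = 0.0239 across 22398 regions, which are not independent). This value covers only the numbering of the labels and cannot show whether libraries were prepared in pairs. Peak names carry other replicate numbers, and a pairing by those was not tested. With the replicate block limma called 0 regions, with 1362 at an unadjusted p under 0.05. Of 96 recomputed rank differences at 12 named regions, 87 lay within 1 SD of the reported value and 9 lay farther. All 9 came from settings other than leaving out a library. A value without 1 library shifts only by part of the gap between replicates, so those values do not measure stability. The opposite sign occurred in 16, none of them at the gain or loss, where the criterion fixes the sign without a library. Summit pileups of 7 to 38 fragments limit every region that changed class.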
